A study of Mus musculus with 192 samples.

Results

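The 42 genes described here encode the UDP-glucuronosyltransferases (Ugt) and the cytosolic sulfotransferases (Sult), the mouse enzymes that attach glucuronic acid or sulfate to drugs, hormones, bile acids and bilirubin. They were taken by gene symbol, as every gene named Ugt1a, Ugt2a, Ugt2b, Ugt3a or Sult followed by its number, out of 54752 genes in the deposited table, and 6 names ending in -ps were left out. These gene families were chosen with earlier results of these data known. The 21 Ugt genes comprise 9 Ugt1a, 3 Ugt2a, 7 Ugt2b and 2 Ugt3a members, and the 21 Sult genes include 8 Sult2a and 2 Sult3a members. RNA was sequenced from 9 tissues of male C57BL/6J mice (C57BL/6 in the labels), aged 12 weeks according to the labels, that were wild type (WT) or lacked Nrf2 in the whole body (Nrf2-KO, a knockout of the gene Nfe2l2). Mice of each genotype either lived aboard the International Space Station and were sampled after their return (flight, FL) or lived in matching cages on the ground (ground control, GC), so the 4 groups are GC_WT, GC_KO, FL_WT and FL_KO. The tissues are liver (Liv), kidney (Kid), epididymal white fat (eWAT), interscapular brown fat (iBAT), thymus (Thy), spleen (Spl), temporal bone (TpB), mandibular bone (MdB) and cerebrum (Cbr). Each group held 6 mice, or 3 in Kid and MdB. Flight mouse 04, an Nrf2-KO mouse with intestinal bleeding, was left out, which removed 8 of 192 libraries and left 5 FL_KO mice, or 2 in MdB and 3 in Kid. Nrf2-KO mice with a liver shunt had been screened out before the study. The ground control was run after the flight and at another site, so that flight, return and date of housing cannot be told apart.

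Glucuronidation and sulfation make fat-soluble compounds soluble in water, so that they can leave the body in bile or urine. Ugt enzymes sit in the membrane of the endoplasmic reticulum and use UDP-glucuronic acid, whereas Sult enzymes sit in the cytosol and use the sulfate donor PAPS. Nrf2 is a transcription factor that binds antioxidant response elements and is known to switch on many detoxification genes, and the nuclear receptors CAR, PXR and PPARα act on conjugation genes as well. The liver and the kidney proximal tubule carry most of this capacity, while single Sult members serve other tissues, such as Sult1e1, the estrogen sulfotransferase, and Sult4a1, a brain member.

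Gene levels are given in TPM, each transcript's share of all transcripts in a library after correction for length, and differences as log2 fold changes ± SE from 1 edgeR quasi-likelihood fit per tissue to the expected counts. A gene is said to have risen or fallen, or to have been called, where its Benjamini-Hochberg adjusted p, taken over all genes tested in that tissue, was under 0.05. Per library, 8.0 to 10.6 M reads were assigned to genes in the 24 thymus libraries and 13.0 to 16.3 M in the other 168, counting those of flight mouse 04. Nfe2l2 itself was lower in every Nrf2-KO library than in every WT library in 9 of 9 tissues, with log2 fold changes from -1.83 (Cbr, flight) to -0.25 (Spl, ground), and its remaining transcript was still counted. In bulk tissue, fewer cells of a type and less RNA per cell cannot be told apart. The sources used here name individual mice as the replicates.

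Members of a family share sequence, which limits how well their reads can be told apart. The 9 Ugt1a genes lie on the plus strand at chr1:88055388-88220002 (mm10) and have their own first exons but 3 common exons, listed in all 9, between bases 88215044 and 88216357. Of all windows of 76 bases, the read length, 51.1% to 74.6% in each Ugt1a gene also occur in another gene, so RSEM had to divide those reads among the members. The largest share belongs to Ugt1a6b, with 74.3% of its windows found in Ugt1a6a. The 7 Ugt2b genes at chr5:86889767-87424203 share 0.0% to 30.1% of their windows, with the highest shares in Ugt2b5 (30.1%, nearly all with Ugt2b38) and Ugt2b38 (27.8%). Values of single Ugt1a members are therefore uncertain, and family totals are given beside them.

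Of the 42 members, 29 were abundant enough to be tested in at least 1 tissue, giving 101 member and tissue pairs. The remaining 13, among them 6 Sult2a genes, both Sult3a genes, Ugt1a8, Ugt2a1 and Ugt2a2, reached at most 0.68 TPM in any library. The heatmap of mean levels shows a liver and kidney pattern for the Ugt genes and a wider one for the Sult genes. In Liv, 18 members reached a mean of 10 TPM in at least 1 group, led by Ugt2b5, Ugt1a1 (355.3 to 736.4 TPM over all mice), Sult2a8 (342.1 to 613.3) and Sult1a1 (245.1 to 497.4). Kid had 10 such members, led by Ugt2b38 (470.7 to 696.8 TPM) and Ugt3a2 (446.4 to 647.0), and eWAT had 5. Ugt1a1 is the bilirubin-conjugating enzyme and Sult1a1 is the main phenol sulfotransferase.

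**Figure D1:**
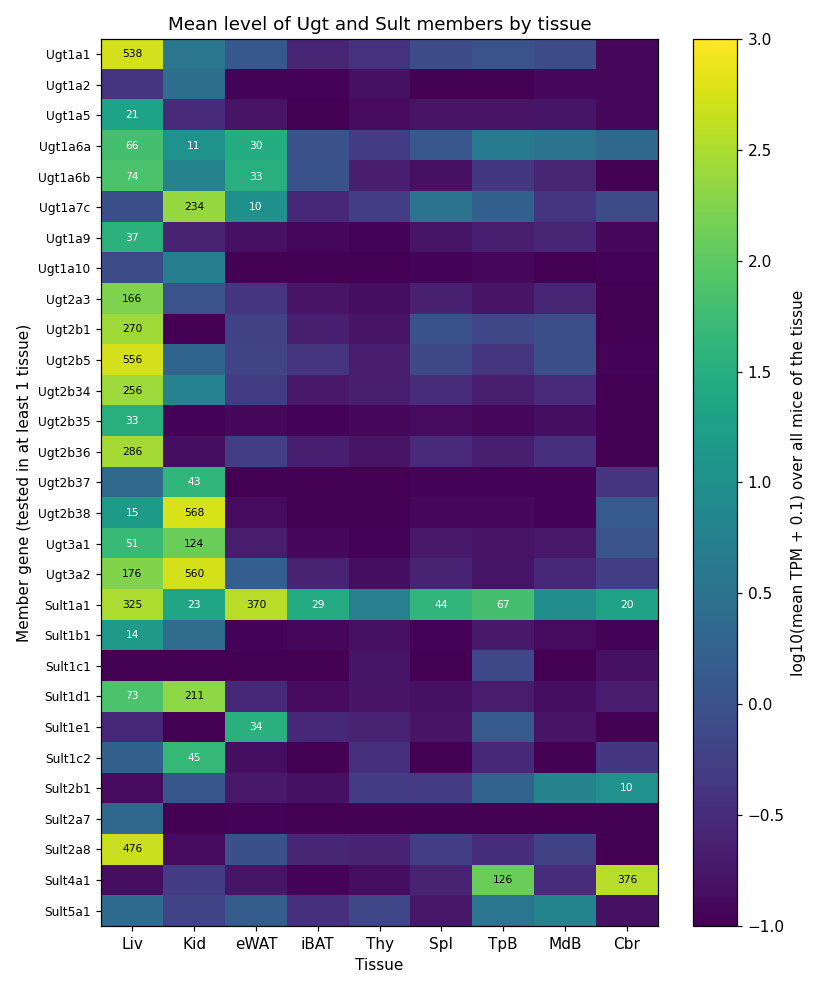
Mean level of the 29 tested members (rows) in the 9 tissues (columns), coloured by log10(mean TPM + 0.1) over all mice of the tissue, with the mean TPM written where it is at least 10. Ugt members are bright in Liv and Kid, while Sult1a1 is at 10 TPM or above everywhere but in MdB and Thy, and Sult4a1 in TpB and Cbr.

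The summed Ugt level had a median of 2776.4 TPM in Liv and 1587.9 in Kid, against 79.5 in eWAT and at most 8.76 in each of the other 6 tissues. The summed Sult level ordered the tissues differently, with medians of 886.1 TPM in Liv, 419.4 in eWAT, 404.6 in Cbr, 277.3 in Kid and 199.2 in TpB. In eWAT this sum was mostly Sult1a1 (256.6 to 507.6 TPM), and in Cbr it was mostly Sult4a1 (348.1 to 419.1 TPM). The Sult4a1 level in TpB varied from 55.6 to 257.1 TPM between mice. Summed neuronal markers ran from 492.3 to 3286.7 TPM in the same TpB libraries, against 4414.5 to 5205.2 in Cbr, and their part in the Sult4a1 spread was not tested.

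Over the 4 comparisons and 9 tissues, 43 differences were called, 36 lower and 7 higher. They fell on 19 members in 4 tissues (Liv, Kid, eWAT and Thy), with 37 calls on Ugt genes and 6 on Sult genes. Between genotypes, 10 member and tissue pairs fell and 2 rose in GC_KO against GC_WT, and 14 fell and none rose in FL_KO against FL_WT. Between flight and ground, 5 pairs fell and 2 rose in WT mice, and 7 fell and 3 rose in Nrf2-KO mice. Each group enters 2 of these comparisons, so the genotype and flight results share samples. The share of all genes called differed widely between tissues. In FL_KO against GC_KO mice, for example, 0.0662% of all genes rose in Kid and 19.3% in Thy. These shares are given by tissue below, and the totals here were not set against them.

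In Liv, loss of Nrf2 went with lower levels of 7 of 25 tested members on the ground and 11 of 25 in flight, and edgeR called no member higher in either comparison. On the ground, DESeq2 added Sult2a7 as higher (log2 fold change 1.27, DESeq2 adjusted p = 0.0152) and Ugt3a2 as lower (-0.31, DESeq2 adjusted p = 0.0463). Over all 13433 liver genes, 1.70% were called lower in GC_KO against GC_WT and 2.29% in FL_KO against FL_WT. The fallen members were mainly Ugt2b and Ugt1a genes. The median member log2 fold change was -0.29 on the ground and -0.33 in flight, against 0.01 for all genes in both. All 7 members called on the ground were also called in flight, where they made up 63.6% of the 11. The 2 comparisons use different mice.

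Ugt2b5, one of the most abundant liver glucuronosyltransferases and a member of the family that handles steroids and bile acids, showed the clearest difference. Its RefSeq promoter (250 bases before to 50 after the gene start, GRCm38.p6, chr5:87140291-87140590, minus strand) is shown because the gene was called in more than 1 tissue. Capitals mark 1 match to AGGTCA, the letters that nuclear receptors bind:
Ugt2b5: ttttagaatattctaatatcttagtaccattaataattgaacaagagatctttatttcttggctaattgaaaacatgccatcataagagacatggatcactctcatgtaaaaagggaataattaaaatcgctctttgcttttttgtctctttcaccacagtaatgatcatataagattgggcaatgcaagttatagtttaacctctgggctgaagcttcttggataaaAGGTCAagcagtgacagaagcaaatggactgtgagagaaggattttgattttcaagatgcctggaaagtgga
Liver Ugt2b5 ran from 686.7 to 902.8 TPM (median 792.1) in GC_WT mice and from 229.8 to 282.6 (median 257.9) in GC_KO mice. In flight it ran from 800.1 to 891.0 TPM (median 835.8) in FL_WT mice and was 306.6, 255.1, 299.1, 309.6 and 288.4 in FL_KO mice 01, 02, 09, 11 and 12. Every Nrf2-KO mouse lay below every WT mouse both on the ground and in flight. The log2 fold change was -1.63 ± 0.08 (edgeR adjusted p = 8.13e-12) on the ground and -1.63 ± 0.09 (edgeR adjusted p = 3.53e-11) in flight, about 3.09-fold and 3.08-fold lower.

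Ugt2b36 and Ugt2b35, neighbours of Ugt2b5 in the chromosome 5 cluster, also fell without overlap between the genotypes. Ugt2b36 ran from 304.2 to 411.4 TPM (median 362.8) in GC_WT and from 139.7 to 191.8 (median 165.9) in GC_KO mice. In flight, Ugt2b36 ran from 348.7 to 457.9 TPM (median 420.4) in FL_WT mice and was 249.0, 201.7, 179.1, 188.6 and 141.8 in the 5 FL_KO mice. Its log2 fold change was -1.13 ± 0.14 (edgeR adjusted p = 8.32e-06) and -1.19 ± 0.15 (edgeR adjusted p = 1.02e-05). The less abundant Ugt2b35 ran from 41.6 to 64.8 TPM (median 48.4) in GC_WT and from 13.9 to 22.4 (median 17.2) in GC_KO mice. In flight, Ugt2b35 ran from 39.9 to 53.7 TPM (median 48.2) in FL_WT mice and was 10.3, 11.9, 17.4, 14.8 and 13.9 in FL_KO mice. It fell by 1.59 ± 0.13 (edgeR adjusted p = 9.86e-09) on the log2 scale on the ground and by 1.87 ± 0.14 (edgeR adjusted p = 3.14e-09) in flight. None of the 76-base windows of Ugt2b35 or Ugt2b36 occur exactly in another gene. Windows that match another gene with a few different bases were not counted, so some sharing of reads remains possible.

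The other Ugt2b members moved less with genotype. Ugt2b1 ran from 199.9 to 288.9 TPM (median 210.9) in FL_WT mice and was 132.8, 166.2, 152.8, 165.9 and 114.3 in FL_KO mice, again without overlap (log2 fold change -0.71 ± 0.15, edgeR adjusted p = 0.00804). On the ground its ranges overlapped, with 307.3 to 429.9 TPM (median 371.5) in GC_WT and 212.2 to 381.4 (median 319.1) in GC_KO mice, and the difference was not called (-0.30 ± 0.14, edgeR adjusted p = 0.367). Ugt2b34 ran from 247.5 to 296.3 TPM (median 275.8) in FL_WT mice and was 222.1, 232.8, 261.5, 215.5 and 230.6 in FL_KO mice. This small overlapping difference (-0.33 ± 0.08, edgeR adjusted p = 0.0184) was lost without FL_KO mouse 11 or 12 (adjusted p up to 0.0599) and with limma on log2 TPM (adjusted p up to 0.156). Whether the genotype difference of Ugt2b1 or Ugt2b34 itself changed with flight is covered by the interaction test, which called neither.

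The promoters of the 7 Ugt2b genes are not equally alike. Those of Ugt2b5 and Ugt2b38 are identical at 84.2% of aligned bases, and those of Ugt2b37 and Ugt2b38 at 87.3%, whereas Ugt2b5 shares 62.2% with Ugt2b36 and 60.4% with Ugt2b35. AGGTCA occurs in the promoters of Ugt2b5, Ugt2b35, Ugt2b36, Ugt2b37 and Ugt2b38 and in 16.3% of all 32851 RefSeq mouse promoters of this length. Any part of promoter similarity in the shared liver fall was not tested.

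Among the Ugt1a members, Ugt1a6a and Ugt1a6b, which conjugate small planar phenols, and Ugt1a9, a phenol and drug enzyme in humans, fell in liver. The Ugt1a6a promoter (GRCm38.p6, chr1:88134559-88134858, plus strand) is shown as that of a member called in more than 1 tissue. Capitals mark 1 match to TGANNNNGC, the core letters of the antioxidant response element to which Nrf2 binds, here on the other strand, and 1 match to GTTAAT, part of the site of the liver factor HNF1, also on the other strand:
Ugt1a6a: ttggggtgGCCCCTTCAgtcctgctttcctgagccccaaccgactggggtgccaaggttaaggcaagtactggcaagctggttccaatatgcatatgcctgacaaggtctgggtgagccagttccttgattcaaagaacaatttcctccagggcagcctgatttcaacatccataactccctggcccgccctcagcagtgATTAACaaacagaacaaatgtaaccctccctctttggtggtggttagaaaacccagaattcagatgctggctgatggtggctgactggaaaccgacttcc
Liver Ugt1a6a ran from 77.6 to 93.8 TPM (median 82.7) in GC_WT and from 37.9 to 47.9 (median 43.1) in GC_KO mice. In flight, it ran from 89.0 to 95.1 TPM (median 92.1) in FL_WT mice and was 49.8, 41.6, 42.4, 39.1 and 36.9 in FL_KO mice. Nrf2-KO mice all lay below WT mice, with a log2 fold change of -0.98 ± 0.09 (edgeR adjusted p = 1.05e-07) on the ground and -1.23 ± 0.10 (edgeR adjusted p = 8.51e-09) in flight. Ugt1a6b, which has no promoter entry in the table used, followed with -0.92 ± 0.09 (edgeR adjusted p = 9.72e-08; 83.0 to 94.0 against 38.6 to 52.8 TPM) and -1.17 ± 0.09 (edgeR adjusted p = 6.19e-09; 96.3 to 112.1 against 42.7 to 53.5 TPM).

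Liver Ugt1a9 fell as well, but with overlapping groups. It ran from 30.1 to 84.2 TPM (median 53.5) in GC_WT and from 18.7 to 38.1 (median 23.5) in GC_KO mice, a log2 fold change of -1.04 ± 0.20 (edgeR adjusted p = 0.00309). In flight, Ugt1a9 ran from 22.3 to 53.4 TPM (median 45.2) in FL_WT mice and was 23.5, 15.2, 24.7, 17.8 and 26.1 in FL_KO mice (-1.08 ± 0.22, edgeR adjusted p = 0.00399). The overlap in flight came from the lowest FL_WT mouse, whose value lay among those of the FL_KO mice.

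Ugt1a2 had the largest fitted change but rests on very few reads. Its promoter (GRCm38.p6, chr1:88200361-88200660, plus strand) is shown for that change and holds none of the 4 motifs searched on both strands, which were those of Nrf2, HNF1 and nuclear receptors just given and GCGTG, the core of the aryl hydrocarbon receptor site:
Ugt1a2: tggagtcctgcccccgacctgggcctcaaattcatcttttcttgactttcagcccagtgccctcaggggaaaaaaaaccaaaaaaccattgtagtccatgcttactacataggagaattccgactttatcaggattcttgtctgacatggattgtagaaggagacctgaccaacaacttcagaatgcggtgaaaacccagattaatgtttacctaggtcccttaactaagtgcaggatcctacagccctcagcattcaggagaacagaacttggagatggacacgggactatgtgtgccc
Liver Ugt1a2 was at 0.20 to 0.62 TPM (median 0.37) in FL_WT mice, and was 0.11 TPM in FL_KO mouse 01 and 0 in the other 4 FL_KO mice. Summed over mice, this was 51 against 2 expected counts, a ratio per read sequenced of 21.2 (edgeR adjusted p = 0.00912). An exact 95% counting interval of 5.6 to 180.0 treats each count as independent and leaves out the spread between mice. It also leaves out the division of shared reads among the Ugt1a members. Including flight mouse 04 gave an adjusted p of 0.155 (log2 fold change -2.14). On the ground the summed expected counts were 62 in GC_WT and 33 in GC_KO mice, a ratio of 1.9. The counting interval of 1.2 to 2.9 has the same limits, and edgeR made no call.

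Sult5a1, a little-studied sulfotransferase, was the only Sult gene called by edgeR among 7 tested in Liv. Its promoter (GRCm38.p6, chr8:123158231-123158530, minus strand), shown because the gene was called in more than 1 tissue, has none of the 4 motifs:
Sult5a1: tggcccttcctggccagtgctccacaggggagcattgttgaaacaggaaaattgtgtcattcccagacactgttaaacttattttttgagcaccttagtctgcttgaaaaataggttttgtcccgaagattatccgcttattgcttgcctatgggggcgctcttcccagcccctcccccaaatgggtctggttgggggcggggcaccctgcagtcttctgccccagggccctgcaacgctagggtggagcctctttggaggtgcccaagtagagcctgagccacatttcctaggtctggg
Liver Sult5a1 was 1.36 to 5.13 TPM (median 3.96) in GC_WT and 0.78 to 2.70 (median 1.71) in GC_KO mice, with overlap (log2 fold change -1.16 ± 0.31, edgeR adjusted p = 0.0448). In flight it was 2.01 to 3.79 TPM (median 2.91) in FL_WT mice and 0.95, 0.77, 0.73, 1.67 and 0.97 in FL_KO mice, without overlap (-1.59 ± 0.35, edgeR adjusted p = 0.00896). The ground call of Sult5a1 was lost when any of 16 of the 23 mice was left out (adjusted p up to 0.117), including GC_WT mice 03, 06, 07 and 10, GC_KO mice 02, 04, 09, 11 and 12, FL_WT mice 03, 06, 07 and 08 and FL_KO mice 01, 02 and 12, so it sits at the threshold.

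Ugt3a2, of a family that uses sugars other than glucuronic acid, was the last liver member called with genotype. Its level was 208.9 to 225.3 TPM (median 219.8) in FL_WT mice and 209.8, 185.5, 171.8, 180.9 and 144.8 in FL_KO mice (log2 fold change -0.38 ± 0.10, edgeR adjusted p = 0.0314). FL_KO mouse 01 alone overlapped the FL_WT mice. The Ugt3a2 call was lost without FL_WT mouse 03, 05 or 06 or FL_KO mouse 09, 11 or 12 (adjusted p up to 0.0984).

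**Figure D2:**
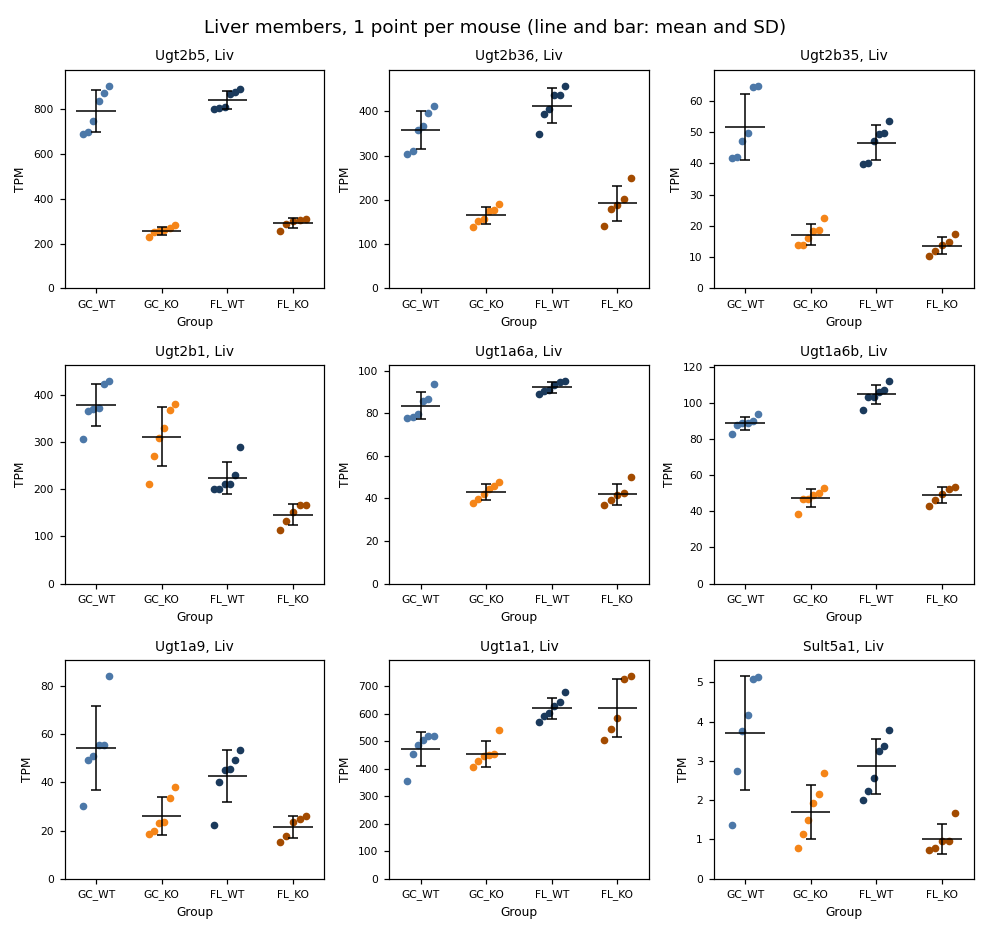
Liver TPM (y axis) of 9 members by group (x axis), with 1 point per mouse, the mean as a line and the SD as a bar. Ugt2b5, Ugt2b36, Ugt2b35, Ugt1a6a and Ugt1a6b separate the genotypes fully, while Ugt1a1 does not, and Ugt2b1 is lower in flight.

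Several of the most abundant liver members were not called with genotype. Ugt1a1 ran from 355.3 to 517.8 TPM (median 495.3) in GC_WT and from 405.7 to 541.4 (median 448.7) in GC_KO mice, with a log2 fold change of -0.07 ± 0.13 (edgeR adjusted p = 0.886). The flight value was -0.09 ± 0.14 (edgeR adjusted p = 0.817). Sult2a8, a bile acid and hydroxysteroid sulfotransferase, gave 0.05 ± 0.16 and -0.10 ± 0.16, and Sult1a1 gave 0.01 ± 0.11 and 0.24 ± 0.12, none of them called. Ugt2a3 gave 0.12 ± 0.12 and 0.08 ± 0.12. The median log2 fold change of the 7 tested Sult genes was 0.03 on the ground and 0.10 in flight, against -0.54 and -0.64 for the 18 tested Ugt genes.

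**Figure D3:**
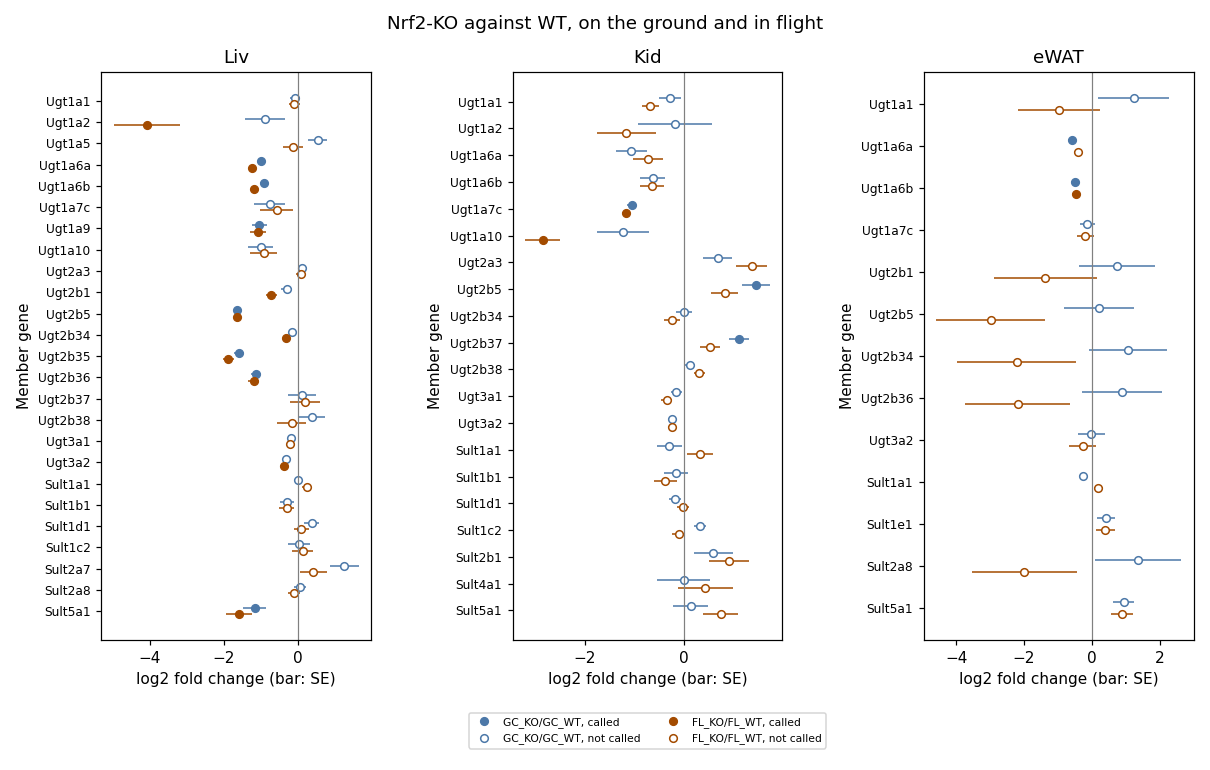
Log2 fold change of Nrf2-KO against WT (x axis, bar: SE) for each tested member (y axis) in Liv, Kid and eWAT, on the ground (blue) and in flight (brown), filled where called. In Liv the Ugt2b5 points lie at -1.63 in both settings, and in Kid Ugt1a7c is at -1.05 and -1.17.

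Summing the reads of a family removes the division of shared reads among its members. The liver Ugt2b total was 1709.2 to 2093.6 TPM in GC_WT and 867.3 to 1121.6 in GC_KO mice, a log2 fold change of -0.77 ± 0.08 (edgeR adjusted p = 1.73e-06), and -1.03 ± 0.09 (edgeR adjusted p = 4.82e-08) in flight. Neither comparison had overlapping groups. The Ugt1a total was 637.3 to 784.4 TPM against 545.5 to 687.2 (-0.28 ± 0.11, edgeR adjusted p = 0.221), and was not called in flight either (-0.32 ± 0.11, edgeR adjusted p = 0.135). Ugt1a1 made up a median of 66.8% of the liver Ugt1a TPM in GC_WT and 75.4% in GC_KO mice, with 70.2% in FL_WT and 82.1% in FL_KO mice.

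Flight went with lower levels of 1 liver member in WT mice and 5 in Nrf2-KO mice, and none rose. The fit behind these counts paired no mice, and fewer than 5 remained with mouse number as a block. Over all liver genes, 1.91% fell in FL_WT against GC_WT and 2.02% in FL_KO against GC_KO. The member called in both was Ugt2b1, which conjugates opioids and phenols in rodents. Comparing flight with ground in WT mice, 199.9 to 288.9 TPM (median 210.9) stood against 307.3 to 429.9 (median 371.5), without overlap (log2 fold change -0.82 ± 0.14, edgeR adjusted p = 0.00326). The FL_KO values of 132.8, 166.2, 152.8, 165.9 and 114.3 TPM stood against 212.2 to 381.4 (median 319.1) in GC_KO mice, also without overlap (-1.23 ± 0.15, edgeR adjusted p = 9.65e-05).

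The other 4 flight calls were made in Nrf2-KO livers, where same-numbered FL and GC mice deviated together across genes. Ugt2b38 was 12.8 to 42.2 TPM (median 24.5) in GC_KO mice and 4.84, 7.73, 7.36, 16.1 and 7.18 in FL_KO mice, with overlap (log2 fold change -1.62 ± 0.39, edgeR adjusted p = 0.0196, and 0.0271 with mouse number as a block). It was lost without FL_KO mouse 01, 02, 09 or 12 or GC_KO mouse 04 (adjusted p up to 0.0601). Ugt1a5 was 17.8 to 55.2 TPM (median 29.0) in GC_KO mice and 14.8, 18.0, 12.8, 12.4 and 17.4 in FL_KO mice, with overlap at 1 GC_KO mouse (-1.15 ± 0.28, edgeR adjusted p = 0.0248). With mouse number as a block Ugt1a5 gave -1.08 and an adjusted p of 0.0562, and without FL_KO mouse 01, 09 or 11 or GC_KO mouse 11 it gave up to 0.068.

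Liver Ugt2b35 (-0.49 ± 0.14, edgeR adjusted p = 0.0449) and Ugt1a2 (edgeR adjusted p = 0.0429) were also called between FL_KO and GC_KO mice and also lost with mouse number as a block (adjusted p = 0.0755 and 0.0868), so that 2 of the 5 calls remained. The Ugt1a2 expected counts summed to 33 against 2, a ratio of 13.9, and GC_KO mouse 11 alone held 17.8 of them. The exact 95% counting interval of 3.6 to 119.6 leaves out the spread between mice. Left-out mice gave adjusted p values of up to 0.136 for Ugt1a2, where the call was lost without GC_WT mouse 03, GC_KO mouse 04 or 11, FL_WT mouse 06 or FL_KO mouse 02, 09, 11 or 12, and up to 0.134 for Ugt2b35, where it was lost without any of 14 mice. Those 14 were GC_WT mice 06 and 10, GC_KO mice 01, 02, 04 and 11, FL_WT mice 06, 07, 08 and 10 and FL_KO mice 01, 02, 11 and 12.

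Liver Ugt1a1 was at higher TPM in flight in WT mice but was not called on counts. Ugt1a1 ran from 571.4 to 679.9 TPM (median 615.9) in FL_WT mice, above every GC_WT mouse, and was 726.0, 736.4, 584.6, 505.9 and 544.5 in FL_KO mice, overlapping GC_KO. Its log2 fold changes were 0.32 ± 0.13 (edgeR adjusted p = 0.204) and 0.31 ± 0.14 (edgeR adjusted p = 0.281). With limma on log2(TPM + 1) they were 0.40 (adjusted p = 0.0174) and 0.44 (adjusted p = 0.00801), on a scale where the median liver gene itself shifts by 0.14 in FL_KO against GC_KO. Liver Ugt3a2 lay at the threshold in WT mice, with 208.9 to 225.3 TPM (median 219.8) in FL_WT and 158.2 to 186.3 (median 168.1) in GC_WT mice, without overlap (0.30 ± 0.09, edgeR adjusted p = 0.0782). It was called by DESeq2 (adjusted p = 0.0444), by edgeR with mouse number as a block (adjusted p = 0.0364) and by edgeR with only the groups compared (adjusted p = 0.0489). Hepatocyte markers summed to 67012.2 to 91077.1 TPM over all livers.

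**Figure D4:**
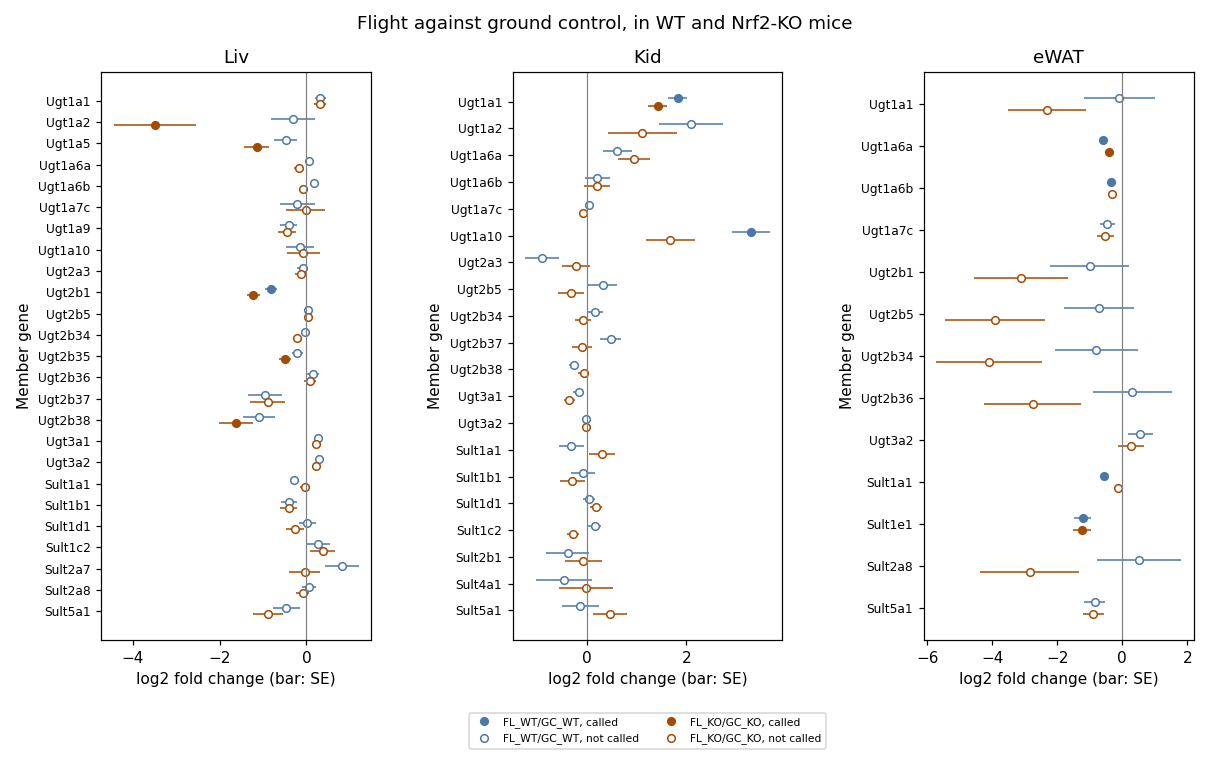
Log2 fold change of flight against ground control (x axis, bar: SE) for each tested member (y axis) in Liv, Kid and eWAT, in WT (blue) and Nrf2-KO mice (brown), filled where called. Ugt1a10 and Ugt1a1 stand out to the right in Kid, and Sult1e1 lies near -1.22 in both genotypes in eWAT, where the widest bars belong to low Ugt2b members.

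In Kid, with 3 mice per group, 3 of 20 tested members differed with genotype on the ground, 1 lower and 2 higher, and 2 were lower in flight. Kidney Ugt1a6a was not among these, but DESeq2 called it lower on the ground (-1.06, DESeq2 adjusted p = 0.0357). A fit of only the groups compared did so too (-1.05, edgeR adjusted p = 0.0239). Over 15114 kidney genes, 1.04% fell and 0.569% rose in GC_KO against GC_WT, and 1.32% fell in FL_KO against FL_WT. Ugt1a7c, a phenol-conjugating member that makes up most of the kidney Ugt1a level, fell in both. Its promoter (GRCm38.p6, chr1:88094751-88095050, plus strand) is shown as that of a member called in more than 1 tissue, with capitals at 1 match to AGGTCA and 1 match to TGANNNNGC on the other strand:
Ugt1a7c: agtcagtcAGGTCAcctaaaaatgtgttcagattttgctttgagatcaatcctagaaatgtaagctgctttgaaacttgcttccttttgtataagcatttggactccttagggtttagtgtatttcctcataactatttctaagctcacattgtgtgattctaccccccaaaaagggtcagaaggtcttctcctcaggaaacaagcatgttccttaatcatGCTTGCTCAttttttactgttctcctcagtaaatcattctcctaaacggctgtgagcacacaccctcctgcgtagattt
Kidney Ugt1a7c was 310.6, 273.5 and 335.4 TPM in GC_WT mice and 149.6, 161.0 and 138.1 in GC_KO mice (log2 fold change -1.05 ± 0.09, edgeR adjusted p = 3.6e-05). It was 311.3, 337.7 and 344.0 TPM in FL_WT mice and 139.6, 156.9 and 148.4 in FL_KO mice (-1.17 ± 0.09, edgeR adjusted p = 1.32e-05). Every Nrf2-KO kidney held about as little Ugt1a7c in flight as on the ground, and the genotypes never overlapped. The kidney Ugt1a total fell as well, with 298.3 to 355.1 TPM in GC_WT and 152.9 to 174.7 in GC_KO mice (-1.03 ± 0.09, edgeR adjusted p = 2.46e-05) and a flight log2 fold change of -1.16 ± 0.09 (edgeR adjusted p = 8.49e-06).

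TGANNNNGC is found in the promoters of 13 of the 36 members that have one (36.1%), including Ugt1a6a, Ugt1a7c and Ugt1a1, and in 41.3% of all mouse promoters of this length. It is not found in these windows of Ugt2b5, Ugt2b35 or Ugt2b36. GTTAAT is found in 36.1% of the members' promoters and 7.1% of all promoters. AGGTCA is found in 27.8% against 16.3%, and GCGTG in 13.9% against 32.4%.

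A pair of Ugt2b members rose in the kidneys of GC_KO mice. Ugt2b37 was 20.9, 25.6 and 28.9 TPM in GC_WT mice and 48.3, 48.3 and 68.9 in GC_KO mice, without overlap (log2 fold change 1.12 ± 0.21, edgeR adjusted p = 0.013). Ugt2b5 was much lower in Kid than in Liv, at 1.29, 0.81 and 0.91 TPM in GC_WT mice and 2.44, 2.57 and 3.40 in GC_KO mice, also without overlap (1.47 ± 0.28, edgeR adjusted p = 0.0155). In flight, kidney Ugt2b5 gave 0.83 ± 0.28 (edgeR adjusted p = 0.187). Both ground calls depended on single mice, being lost without GC_KO mouse 12 or GC_WT mouse 07, and also without GC_WT mouse 06 for Ugt2b37 and GC_WT mouse 10 for Ugt2b5 (adjusted p up to 0.0843 and 0.0892). Ugt2b38, which shares 28.2% of the Ugt2b5 windows, stood at 549.0 to 564.9 TPM in GC_WT and 509.5 to 679.0 in GC_KO kidneys and was not called (0.12 ± 0.11, edgeR adjusted p = 0.768).

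Flight went with higher kidney levels of 2 members in WT mice and 1 in Nrf2-KO mice, while 0.0992% of all kidney genes rose in FL_WT against GC_WT and 0.0662% in FL_KO against GC_KO. Ugt1a10, mainly a gut enzyme in humans, and Ugt1a1 were the members. The Ugt1a10 promoter (GRCm38.p6, chr1:88055161-88055460, plus strand) is shown because this was the largest change in kidney, with capitals at 2 matches to GTTAAT, 1 on each strand:
Ugt1a10: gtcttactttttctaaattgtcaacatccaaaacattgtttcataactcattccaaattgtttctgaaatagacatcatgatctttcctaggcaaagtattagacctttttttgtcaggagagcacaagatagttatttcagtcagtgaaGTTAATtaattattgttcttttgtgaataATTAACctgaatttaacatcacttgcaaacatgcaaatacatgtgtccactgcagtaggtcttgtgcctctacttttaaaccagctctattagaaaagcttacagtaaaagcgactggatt
Kidney Ugt1a10 was 0.98, 0.73 and 2.91 TPM in GC_WT mice and 14.0, 15.8 and 18.4 in FL_WT mice, about 9.93-fold higher in flight (log2 fold change 3.31 ± 0.38, edgeR adjusted p = 0.00259). It was 0.57, 0.34 and 1.07 TPM in GC_KO mice and 2.04, 1.52 and 3.14 in FL_KO mice, a difference that did not pass (1.68 ± 0.49, edgeR adjusted p = 0.21) but did with DESeq2 (adjusted p = 0.0248). Neither genotype overlapped between flight and ground. Without GC_WT mouse 10, the highest of its group, the Ugt1a10 log2 fold change in WT mice was 4.14. In flight, Ugt1a10 was 7.25-fold lower in Nrf2-KO than in WT kidneys (-2.86 ± 0.36, edgeR adjusted p = 0.00065).

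Kidney Ugt1a1 rose with flight in both genotypes. It was 2.09, 1.96 and 1.63 TPM in GC_WT mice and 7.61, 7.54 and 6.09 in FL_WT mice, without overlap (log2 fold change 1.83 ± 0.19, edgeR adjusted p = 0.00244). It was 1.51, 1.42 and 1.79 TPM in GC_KO mice and 5.49, 3.67 and 4.10 in FL_KO mice, again without overlap (1.42 ± 0.20, edgeR adjusted p = 0.0202). The Nrf2-KO call for Ugt1a1 was lost without GC_KO mouse 02, 11 or 12 or FL_KO mouse 01 (adjusted p up to 0.0903) and when only the groups compared were fitted (adjusted p = 0.173). The kidney Ugt1a total, which is mostly Ugt1a7c, was not called with flight (0.12 ± 0.09 and -0.01 ± 0.09). Proximal tubule markers summed to 68216.9 to 91609.7 TPM in the ground kidneys and to 55424.7 to 62677.9 in the flight kidneys. Yet none of the 6 markers was called in any comparison, and such a sum is carried by its most abundant markers. The markers' part in the flight differences was not tested.

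The abundant kidney members Ugt2b38, Ugt3a2, Ugt3a1 and Sult1d1, a catecholamine and eicosanoid sulfotransferase, were not called in any comparison. Of the 7 Sult genes tested in Kid, none was called, with an edgeR median log2 fold change of 0.00 and 0.33 for genotype on the ground and in flight, and of -0.14 and -0.03 for flight in WT and Nrf2-KO mice. Before adjustment, 9, 12, 6 and 5 of the 20 kidney members had p under 0.05 in the same order of comparisons, against 10.9%, 13.2%, 6.64% and 12.8% of all kidney genes. The kidney Ugt2a total, which is nearly all Ugt2a3, was called higher in FL_KO than in FL_WT mice (1.38 ± 0.32, edgeR adjusted p = 0.0498), at 0.86 to 1.47 against 0.35 to 0.56 TPM, but stayed called in only 1 of 12 fits with a mouse left out (without GC_KO mouse 02), and not with DESeq2, with RLE factors or with only the groups compared.

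**Figure D5:**
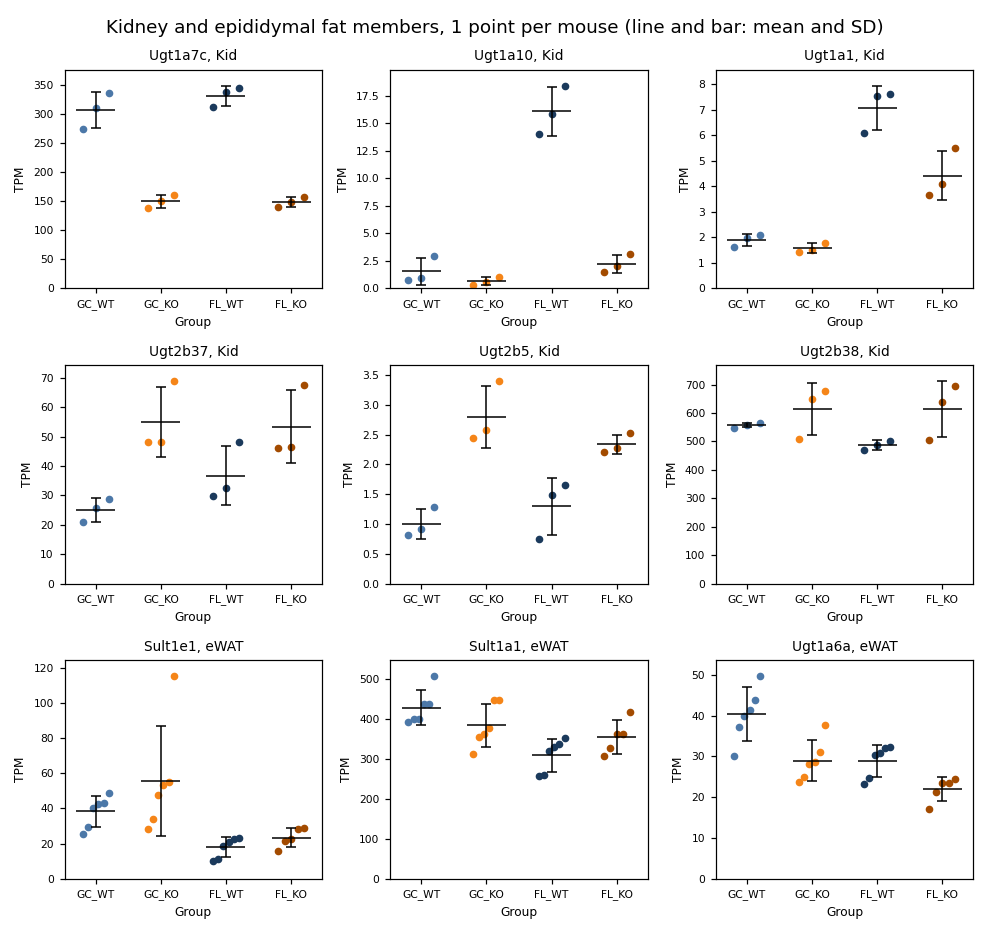
TPM (y axis) of 6 kidney and 3 epididymal fat members by group (x axis), with 1 point per mouse, the mean as a line and the SD as a bar. Kidney Ugt1a7c separates the genotypes, kidney Ugt1a10 is at 14.0 to 18.4 TPM in FL_WT mice only, and Sult1e1 in eWAT is lower in flight with 1 high GC_KO mouse at 115.1.

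In eWAT, 4 of 13 tested members fell with flight in WT mice and 2 in Nrf2-KO mice, against 6.78% and 3.98% of all 15317 genes. The member with the largest fall was Sult1e1, which inactivates estrogens by sulfation. Its promoter (GRCm38.p6, chr5:87591562-87591861, minus strand) is shown for this change, with capitals at 2 matches to TGANNNNGC and 1 match to AGGTCA on the other strand:
Sult1e1: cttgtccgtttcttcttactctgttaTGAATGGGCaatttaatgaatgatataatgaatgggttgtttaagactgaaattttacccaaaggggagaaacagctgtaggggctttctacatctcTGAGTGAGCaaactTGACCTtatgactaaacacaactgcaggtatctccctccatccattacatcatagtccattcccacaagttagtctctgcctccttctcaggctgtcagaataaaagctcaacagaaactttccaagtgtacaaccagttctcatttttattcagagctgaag
Sult1e1 in eWAT was 25.6 to 48.6 TPM (median 41.5) in GC_WT and 9.89 to 23.4 (median 19.9) in FL_WT mice, without overlap (log2 fold change -1.22 ± 0.27, edgeR adjusted p = 0.00422). It was 28.2 to 115.1 TPM (median 50.4) in GC_KO mice and 28.3, 22.8, 28.6, 21.2 and 15.8 in FL_KO mice, with a narrow overlap (-1.23 ± 0.28, edgeR adjusted p = 0.0102). Both calls held without any single mouse, including GC_KO mouse 01, the highest.

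Sult1a1 in eWAT fell in WT mice, from 391.6 to 507.6 TPM (median 418.9) on the ground to 256.6 to 353.4 (median 325.4) in flight, without overlap (log2 fold change -0.57 ± 0.12, edgeR adjusted p = 0.0033). In Nrf2-KO mice it was 312.1 to 448.6 TPM (median 370.8) on the ground and 361.7, 307.1, 418.4, 328.2 and 362.5 in flight, and was not called (-0.13 ± 0.13, edgeR adjusted p = 0.599). The difference between these 2 flight effects had an unadjusted p under 0.05 but did not pass the adjusted test.

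Ugt1a6a and Ugt1a6b in eWAT fell both with genotype and with flight. Over all eWAT genes, 1.41% fell in GC_KO against GC_WT and 0.659% in FL_KO against FL_WT, where 2 members and 1 member fell. Ugt1a6a was 30.1 to 49.7 TPM (median 40.7) in GC_WT, 23.7 to 37.8 (median 28.3) in GC_KO and 23.3 to 32.3 (median 30.6) in FL_WT mice, and 21.2, 17.2, 23.5, 23.6 and 24.4 in FL_KO mice. All of these ranges overlapped the range they were compared with. The log2 fold change was -0.58 ± 0.11 (edgeR adjusted p = 0.00466) for GC_KO against GC_WT and -0.59 ± 0.11 (edgeR adjusted p = 0.00121) for FL_WT against GC_WT. The flight fall in Nrf2-KO mice (-0.41 ± 0.12, edgeR adjusted p = 0.0381) was lost without any of 9 mice (adjusted p up to 0.136), which were GC_KO mice 01, 02, 11 and 12, FL_KO mice 01, 02, 11 and 12 and FL_WT mouse 10.

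Ugt1a6b in eWAT was 34.4 to 51.0 TPM (median 39.8) in GC_WT, 25.7 to 35.3 (median 30.5) in GC_KO and 29.6 to 38.3 (median 34.5) in FL_WT mice, and 25.4, 24.6, 25.4, 23.4 and 26.1 in FL_KO mice. Its genotype difference was -0.51 ± 0.11 (edgeR adjusted p = 0.00997) on the ground and -0.47 ± 0.11 (edgeR adjusted p = 0.0458, without overlap) in flight, and its flight difference in WT mice was -0.35 ± 0.11 (edgeR adjusted p = 0.0337). The ground call was lost when only the groups compared were fitted (adjusted p = 0.072). The FL_KO against FL_WT call was lost without any of 14 mice, among them FL_WT mice 05, 06, 07 and 08, GC_WT mice 05, 06 and 10, GC_KO mice 04 and 12 and all 5 FL_KO mice (adjusted p up to 0.127). The flight call in WT mice was lost without GC_WT mouse 05, 06 or 08, FL_WT mouse 03, 05 or 10 or FL_KO mouse 02 (adjusted p up to 0.108).

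The eWAT Ugt1a total was called lower in all 4 comparisons (-0.43, -0.40, -0.45 and -0.42). It was 76.9 to 106.8 TPM in GC_WT, 57.6 to 86.5 in GC_KO, 64.7 to 84.2 in FL_WT and 48.0 to 61.3 in FL_KO mice. Of the groups compared, only FL_KO and FL_WT did not overlap. The second call, FL_KO against FL_WT, was lost without FL_KO mouse 01, 02, 09 or 11 or FL_WT mouse 03 or 06. The Ugt2b members in eWAT had medians far below their liver levels, wide errors and no calls, for example -3.92 ± 1.54 for Ugt2b5 in FL_KO against GC_KO mice (edgeR adjusted p = 0.122). Hepatocyte markers summed to 13.1 to 999.2 TPM in the same eWAT libraries and epididymis markers to 0 to 21.0, with the highest values of both in GC_KO mice, and their part in these low members was not tested. Adipocyte markers summed to 12493.6 to 17538.8 TPM.

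In Thy, 2 of 4 tested members rose in FL_KO against GC_KO mice, a comparison in which 19.3% of all 16307 genes rose. Both were scarce there. Ugt1a7c was 0.05 to 0.34 TPM (median 0.21) in GC_KO mice and 0.33, 0.73, 0.45, 0.93 and 0.68 in FL_KO mice (log2 fold change 1.41 ± 0.38, edgeR adjusted p = 0.00483), from 1.6 to 26.0 expected counts per library in these groups. Sult5a1 was 0.29 to 0.84 TPM (median 0.41) and 0.93, 0.84, 1.06, 0.70 and 0.95 (0.63 ± 0.24, edgeR adjusted p = 0.0386). The Sult5a1 call was lost without GC_KO mouse 01, 02, 04 or 09 or FL_KO mouse 01, 02, 09 or 12 (adjusted p up to 0.0982) and with DESeq2. In the same comparison 4 of 6 thymic epithelium markers, 4 of 4 macrophage markers and 4 of 4 B cell markers rose and 4 of 5 thymocyte markers fell. Their summed levels were 259.5 to 415.2 in GC_KO against 467.8 to 562.5 in FL_KO mice, 74.7 to 101.2 against 138.0 to 180.7, 3.88 to 7.24 against 9.45 to 18.4 and 1066.7 to 1685.6 against 1034.5 to 1193.8 TPM, and their part in the 2 members' rise was not tested.

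In iBAT, Spl, TpB, MdB and Cbr no member was called by edgeR in 156 tests, of which 16 had an unadjusted p under 0.05. Over all genes in these tissues, that share ran from 2.3% (TpB, FL_KO against FL_WT) to 43.2% (iBAT, FL_KO against GC_KO). Limma called 0, but it tested only members with a group mean of at least 5 TPM, so most of the 156 were outside it. DESeq2 called 3 differences of members too scarce for the edgeR filter in these tissues, outside the 156 tests (Ugt1a1 and Ugt3a2 in iBAT in FL_WT against GC_WT and Sult2b1 in Spl in GC_KO against GC_WT). In these tissues 38.0% (iBAT), 4.01% (Spl), 0.231% (TpB), 0.299% (MdB) and 0.977% (Cbr) of all genes were called in at least 1 of the 4 comparisons. Sult1a1 in iBAT ran from 18.7 to 44.9 TPM over all mice and in Spl from 18.8 to 72.2, with overlap of all 4 groups. Sult2b1, the cholesterol sulfotransferase, ran from 7.54 to 14.9 TPM in Cbr.

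No member showed a called genotype by flight interaction in 101 edgeR tests, of which 5 had an unadjusted p under 0.05 (Ugt1a2 in Liv, Sult1c2 and Ugt1a10 in Kid, Sult1a1 in eWAT and Sult2a8 in MdB). DESeq2 called 0 as well, and so did limma for the members above its TPM minimum. Over all 140842 gene tests none was called either, and 6987 had an unadjusted p under 0.05. A difference called in 1 setting and not in the other is therefore not shown to differ between them.

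Genes that feed, move and control these reactions were followed from lists. Of the 3 genes that supply UDP-glucuronic acid, Ugdh, the dehydrogenase that makes it, fell in Nrf2-KO mice in Liv (-1.04 ± 0.12 on the ground, edgeR adjusted p = 4.43e-06) and Kid (-0.92 ± 0.13, edgeR adjusted p = 0.00157), without overlap and likewise in flight (-1.09 and -0.96). Ugp2, the enzyme before it, fell in Kid in flight (-0.26 ± 0.06, edgeR adjusted p = 0.0475). Of the 11 genes of sulfate donor supply, 9 were tested in Liv and 11 in Kid, and none was called in either tissue by edgeR. In eWAT 1 of 9 fell with flight, Papss2, a PAPS synthase (-0.53 ± 0.10 in WT mice, edgeR adjusted p = 0.00127, and -0.50 ± 0.11 in Nrf2-KO mice, edgeR adjusted p = 0.00699).

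Conjugates leave cells through transporters, of which 2 of 8 tested fell in Nrf2-KO livers in each setting and 3 of 9 in Nrf2-KO kidneys. Abcc3 (MRP3), which exports glucuronides to the blood, was 83.4 to 109.5 TPM in GC_WT livers and 9.27 to 19.0 in GC_KO livers (-2.72 ± 0.18, edgeR adjusted p = 5.1e-10). It rose with flight in Nrf2-KO mice to 22.0 to 43.0 TPM (0.99 ± 0.18, edgeR adjusted p = 0.00284), still below the 104.2 to 134.3 of FL_WT mice. In Kid, Abcc2, Abcc4 and the uptake carrier Slc22a6 fell (-0.70, -1.01 and -0.51 on the ground). Of 3 tested hydrolases that undo conjugation, Gusb, the β-glucuronidase, fell with flight in Liv in both genotypes (-0.32 and -0.39) and in Kid in WT mice (-0.59), and rose with flight in Thy in both genotypes (0.22 and 0.31).

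Among 13 receptors and factors, Nr1i3 (CAR) fell with Nfe2l2 in Nrf2-KO livers. Nr1i3 was 123.0 to 203.1 TPM in GC_WT and 32.4 to 61.1 in GC_KO mice (-1.96 ± 0.19, edgeR adjusted p = 2.79e-07), and 181.2 to 253.2 against 54.0 to 103.1 in flight (-1.48 ± 0.20, edgeR adjusted p = 4.87e-05). Of the listed Nrf2 targets outside the Ugt and Sult families, 7 of 12 tested fell in Liv in each setting, 9 and 10 of 13 in Kid and 7 and 5 of 13 in eWAT, on the ground and in flight respectively. In Kid these included Gsta3, a glutathione transferase (-3.03 and -3.26), and in Liv Gstm1, another one (-2.27 and -1.95). Among 7 receptor target genes tested in Kid, the PPARα target Cyp4a14 rose with flight in both genotypes. It went from 5.78 to 13.3 TPM in GC_WT to 156.7 to 220.2 in FL_WT mice (4.42 ± 0.42, edgeR adjusted p = 0.00151). In Nrf2-KO mice it went from 16.4 to 52.1 in GC_KO to 260.1 to 349.1 in FL_KO mice (2.84 ± 0.38, edgeR adjusted p = 0.0169). Cyp4a14 also rose in GC_KO against GC_WT kidneys (2.24 ± 0.39, edgeR adjusted p = 0.00938), where neither Ugt1a10 nor Ugt1a1 was called. It rose with flight in Liv as well (2.08 in WT and 1.87 in Nrf2-KO mice), where no member rose. A link between Cyp4a14 and the kidney members was not tested.

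Sex-biased genes were followed because several Ugt2b and Sult members are known to differ between male and female mice. Of 9 tested male-biased genes in Liv, Mup20 alone fell with genotype in both settings, and Selenbp2 and Cyp7b1 fell with flight in WT mice and Selenbp2 in Nrf2-KO mice, Selenbp2 from 519.4 to 1649.1 TPM in GC_WT to 41.8 to 488.8 in FL_WT mice (-2.63 ± 0.57, edgeR adjusted p = 0.0125). In GC_KO kidneys, where Ugt2b37 and Ugt2b5 were higher, 2 of 6 such genes rose (Cyp4a12a and Cyp4a12b) and 2 fell (Cyp7b1 and Selenbp2), and the female-biased Hao2 rose (1.65 ± 0.13, edgeR adjusted p = 1.32e-05).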

How the data were processed

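RNA from 9 tissues was sequenced after poly(A) selection with a strand-specific kit, or after ribosomal RNA removal in Thy. The authors aligned reads with STAR 2.6.1 to mm10 and deposited, per gene of GENCODE vM20 and library, expected counts estimated by RSEM 1.3.1, which divides reads that fit several genes. The same deposited table holds TPM, which the authors' RSEM run scales to gene length and library, and 192 FPKM columns that were not used here.

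Expected counts were rounded and tested per tissue with edgeR 4.0.16 (R 4.3.3; filterByExpr, TMM, quasi-likelihood F test, 4 groups in 1 fit), with Benjamini-Hochberg adjustment over all genes tested and a threshold of 0.05; SE is the absolute log2 fold change divided by the square root of F. Family totals are summed expected counts. Alternatives were RLE factors, no filter, flight mouse 04 included, the compared groups alone, mouse number as a block, DESeq2 1.42.0, limma 3.58.1 on log2(TPM + 1) and log2(TPM + 0.1) with a mean of at least 5 TPM, a block for library sets in TpB, and each mouse left out. The scripts were tested on simulated data. The main fit paired no mice. Same-numbered FL and GC mice are different animals. Only in Nrf2-KO Liv did the deviations of all 5 such pairs correlate above 0.1 (0.222 to 0.369), a cut-off set here. All pairs also correlated positively in WT Liv (0.02 to 0.342), Nrf2-KO iBAT (0.071 to 0.286) and Nrf2-KO Spl (0.014 to 0.173). In Nrf2-KO Liv the block was read as a check on the flight calls. Named members are those called, at most 10 per tissue and comparison by size of change, and for levels those with a group mean of at least 10 TPM; Ugt2b34 and uncalled members beside them were added for completeness. Other genes are at most 4 per list, tissue and comparison. The members and lists were chosen with earlier results of these data known. Of the table's gene IDs, 98.4% matched GENCODE vM21 of the same build, used for positions and 76-base windows. RefSeq promoters were found for 36 of 42 members.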

Additional observations from a re-analysis of the deposited data

Results flagged for a closer look

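In 6 of 76 groups of mice tested, 1 mouse lay far from the rest by Dixon's test, which flags about 1 in 20 groups by chance. In Liv, Sult5a1 was 1.67 TPM in FL_KO mouse 11 against 0.73 to 0.97 in the others, and Ugt2b38 was 16.1 TPM in the same mouse against 4.84 to 7.73. Liver Ugt1a2 was 0.85 TPM in GC_KO mouse 11 against 0.09 to 0.31, and 0.11 TPM in FL_KO mouse 01 against 0 in the other 4. Liver Ugt2b1 was 288.9 TPM in FL_WT mouse 03 against 199.9 to 230.1. In eWAT, Sult1e1 was 115.1 TPM in GC_KO mouse 01 against 28.2 to 54.8.

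A pair of members had genotype log2 fold changes of opposite sign in Liv and Kid, without overlap in either tissue. They were picked from these data for that pattern, and only Ugt2b5 on the ground was called in both tissues. With so few kidneys per group, a lack of overlap can arise by chance and is weak support by itself. Ugt2b5 had log2 fold changes of -1.63 in Liv and 1.47 in Kid on the ground, and of -1.63 and 0.83 in flight, where the kidney value was not called. Sult5a1 had -1.59 in Liv and 0.75 in Kid in flight, where its kidney value was not called either. The differences between the tissues were not tested.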

How the results depend on the processing

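Of 55 called values (43 of members and 12 of family totals), none changed direction in the alternatives that gave it a value or with any mouse left out, and 34 stayed past the threshold in all of these, 27 of them for members. Of the 55, limma gave a value for 46, the fit of only the compared groups for 53 and the block for 18, and a block for library sets in TpB touched none of them. The number of members higher in GC_KO than in GC_WT was 2, and 1 with limma at both pseudocounts and 0 to 2 with a mouse left out. Limma gave no value for kidney Ugt2b5, which was below its TPM minimum. DESeq2 kept both kidney calls and added Sult2a7 in Liv (log2 fold change 1.27, DESeq2 adjusted p = 0.0152). Members higher in FL_KO than in FL_WT numbered 0, and 1 without the filter on low counts and 0 to 1 with a mouse left out. Members higher in FL_WT than in GC_WT numbered 2, but 6 without the filter, 5 with DESeq2 and 6 with limma at both pseudocounts. The members that limma added in Liv (Ugt1a1, Ugt3a1, Ugt3a2 and Ugt1a6b) are on a TPM scale, and the cause of their addition was not tested. Members higher in FL_KO than in GC_KO numbered 3, and 1 to 3 with a mouse left out.

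Members lower in FL_KO than in GC_KO numbered 7, and 4 without the filter, with only the compared groups, with mouse number as a replicate block and with limma at both pseudocounts, and 3 to 7 with a mouse left out. In Liv the count of these members was 5, and 3 without the filter, with only the compared groups and with limma at both pseudocounts, 2 with the replicate block and 2 to 5 with a mouse left out. In eWAT it was 2, and 1 without the filter, with only the compared groups and with limma at both pseudocounts, and 1 to 2 with a mouse left out. Outside Nrf2-KO Liv, not all pairs of same-numbered mice passed the correlation cut-off. There the block removed the flight calls of Ugt1a6a in eWAT (edgeR adjusted p = 0.062) and of Sult5a1 in Thy (edgeR adjusted p = 0.0826) in Nrf2-KO mice. It added Sult5a1 in eWAT in both genotypes (-0.88, edgeR adjusted p = 0.0113, and -0.93, edgeR adjusted p = 0.0151). In WT mice it also added Ugt3a2 in Liv (0.31, edgeR adjusted p = 0.0364) and Ugt2b38 in Liv (-1.24, edgeR adjusted p = 0.0302). No block could be fitted in Kid, where the groups share too few numbers. Without the filter more genes are tested, and with the compared groups alone fewer mice give the spread. In Kid, 3 mice per group limit what can be detected, and a few members rest on very few reads per library.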
